A study of Boehmeria nivea with 2 samples.

Results

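Protease inhibitors were taken from the annotated leaf transcriptome of ramie (Boehmeria nivea), a fiber crop, by the words of their best database hits. A unigene, the unit of the assembly that stands for a gene, was a member if its Swiss-Prot or Nr (NCBI nonredundant) name held any of 11 phrases, such as trypsin inhibitor, Bowman-Birk, Kunitz, cystatin, serpin or miraculin. The rule found 45 of 46,533 unigenes, among 24,327 that carry an annotation, and no expression value entered it. Each member was then placed in an inhibitor class by the words of its annotation. The classes held 5 Bowman-Birk inhibitors, 9 of the potato inhibitor I family, 7 Kunitz and miraculin proteins, 2 of the potato inhibitor II family, 1 mustard trypsin inhibitor, 8 serpins and 10 cystatins. The other 3 members carry the word inhibitor without belonging to a named inhibitor class, namely 2 hits to an inter-alpha-trypsin inhibitor heavy chain and 1 to the lipid transfer family.

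The study asked how ramie leaves respond to larvae of the ramie moth (Cocytodes coerulea). The CH library came from 30-day-old plants of the cultivar Chuanzhu No.8 on which J2 larvae had been placed, and the CK library came from plants of the same cultivar and age that were sampled at the same times. CK plants are titled as mock-challenged and elsewhere described as unchallenged, so what they received is not settled by the labels. In both groups the 2 topmost leaves without damage were taken at 12, 24, 48 and 72 h, not the leaf on which the larvae were placed. Leaves of 5 plants per time were pooled, and the RNA of the 4 times was mixed into 1 library per group. Neither the time course nor the spread between plants can therefore be read, and every comparison is between these 2 libraries with no replicate check. The deposited expected counts sum to 26,938,918 reads in CH and 17,800,062 reads in CK. Markers of green leaf tissue were present in both libraries. They took a smaller share of the reads in CH, namely 0.337% against 1.44% in CK for the rubisco small subunit, 1.71% against 3.66% for chlorophyll a-b binding proteins and 0.996% against 2.47% for rubisco activase. The part of this difference in the values of the inhibitors was not tested. In such bulk RNA, fewer cells of a type and less RNA per cell cannot be told apart.

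Protease inhibitors are small proteins or protein domains that bind a protease and block its active site. Leaf-feeding caterpillars digest leaf protein mainly with serine proteases of the trypsin and chymotrypsin type, and inhibitors of these enzymes are a known defense of leaves, where wounding and the hormone jasmonate can switch on their genes also in leaves far from the wound. Bowman-Birk, potato I, potato II, Kunitz and mustard inhibitors act mainly on serine proteases, whereas cystatins act on cysteine proteases of the papain type. Serpins trap their protease through a change of their own shape, and plant serpins are known to act on proteases of the plant itself.

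Of the 45 members, 14 were called higher in CH, 0 were called lower and 31 were not called. Calls required both an adjusted p below 0.01 (Audic-Claverie test on the reads of the 2 libraries, Benjamini-Hochberg adjustment over 43,302 unigenes) and a deposited RPKM ratio of at least 2. RPKM is the number of reads scaled to the length of the transcript and to the depth of the library. The members called higher are 31.1% of the 45, against 2.48% called higher among all 43,302 unigenes with at least 1 read, and the 0 members called lower stand against 4.28% of these unigenes. No member was lower in CH at an unadjusted p below 0.05 in the Audic-Claverie test, and neither the exact binomial test nor the exact test of edgeR called any lower. The share of all unigenes below that unadjusted p was not counted. Among only 45 members, 0 called lower is near the 4.28% of all unigenes. The called members were 3 of 5 Bowman-Birk inhibitors, 7 of 9 of potato inhibitor I, 3 of 7 Kunitz and miraculin proteins and 1 of 2 heavy chain hits. None of the 10 cystatins, 8 serpins and 2 members of potato inhibitor II, nor the mustard and lipid transfer hits, passed. The small serine protease inhibitors thus had 13 of 24 members called higher, and serpins and cystatins together 0 of 18. Fewer than 10 reads over both libraries were found for 2 of the 24 and 7 of the 18, which left little room for a call. Of the rest, 13 of 22 and 0 of 11 were called higher, beside 4.54% of all unigenes with at least 10 reads. That filter also passes members through CH alone. With at least 10 reads in CK, 3 of 4 Bowman-Birk, 3 of 3 potato I and 3 of 7 Kunitz and miraculin members were called higher. The 1 potato II member, 2 serpins and 7 cystatins with that many had 0 such calls, beside 3.35% of all unigenes. A count of 0 among so few members is near these shares. Whether the classes differ in their share of calls was not tested.

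Calls of this kind rest on counting error alone, and the assumed spread between libraries changed their number. With a coefficient of variation of 0.2 between libraries in the exact test of edgeR, 9 members were called higher, against 495 higher and 579 lower among all unigenes. With a coefficient of 0.4 no member was called, against 134 higher and 52 lower among all unigenes. In that test 14 members had an unadjusted p below 0.05, of which 12 belong to the 14 called here. The share of all unigenes below that unadjusted p was not counted, so these 14 members cannot be set against it.

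The depth of the members ranged widely. Of the 45, 36 reached 10 reads when both libraries were added, and 7 had at most 3 reads in each library, so that no fold is given for these. Of these 36 members 14 were called higher (38.9%) and 0 lower, against 4.54% higher and 7.71% lower among all unigenes with at least 10 reads. The filter itself favors members that are high in CH, since 8 of the 36 had fewer than 10 reads in CK and at least 10 in CH, and 4 of these 8 were called. Of the 27 members with at least 10 reads in CK, 10 were called higher and 0 lower, against 3.35% higher and 9.75% lower among the 18,499 unigenes with that many reads in CK, a filter that works the other way. The median log2 RPKM ratio was 1.24 over the 36 members and -0.02 over the 23,653 unigenes with at least 10 reads, whose quartiles were -0.51 and 0.40. With at least 10 reads in CK it was 0.60 over 27 members and -0.07 over all unigenes. By class the medians were 2.10 for Bowman-Birk, 2.61 for potato inhibitor I, 1.37 for Kunitz and miraculin, 0.80 for potato inhibitor II, 0.04 for serpins and 0.37 for cystatins. In potato inhibitor I, 5 of the 8 members behind the median had fewer than 10 reads in CK and so passed through CH. The other 3 had a median of 2.21. With at least 10 reads in CK, the medians were 2.18 over 4 Bowman-Birk members, 0.13 over 2 serpins and 0.22 over 7 cystatins. The 1 potato inhibitor II member with that many was at -0.18.

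**Figure D1:**
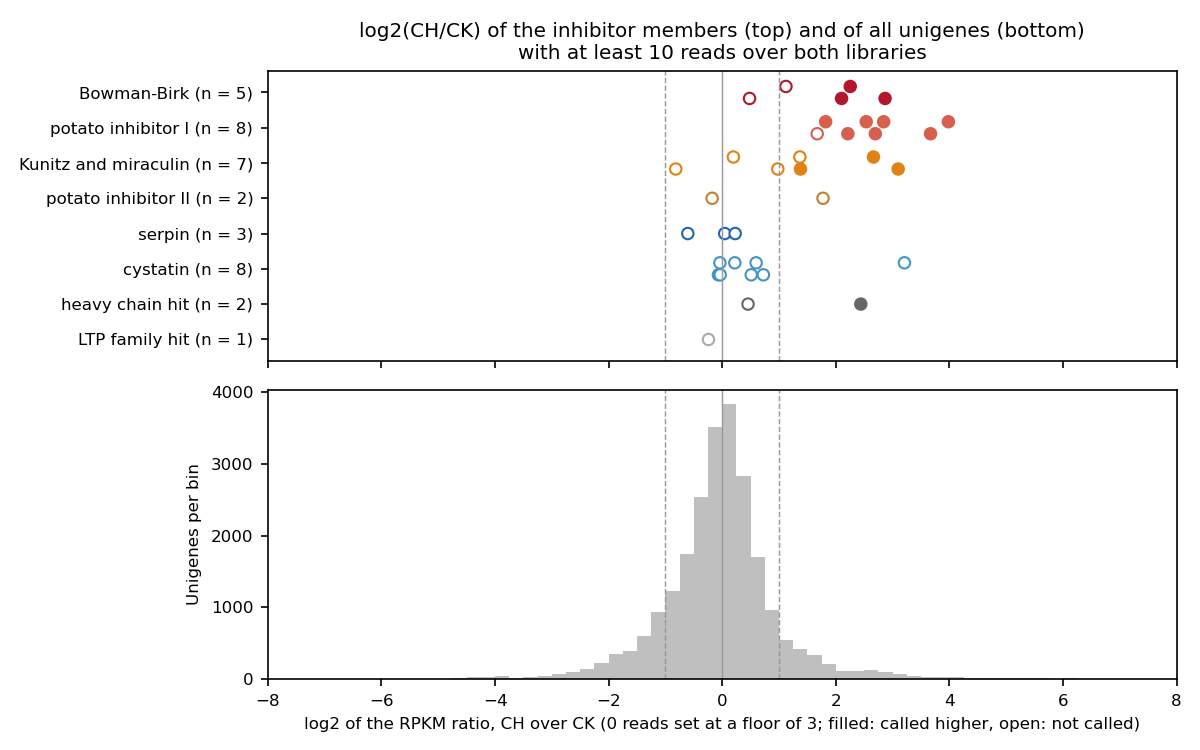
The upper panel gives the log2 RPKM ratio, CH over CK, of the 36 members by class, filled where called higher and open where not called, and the lower panel is a histogram of all unigenes that reached 10 reads in the 2 libraries together, on the same axis. All 8 plotted members of potato inhibitor I lie between 1.67 and 3.98, whereas 3 of 3 serpins and 7 of 8 cystatins lie within the dashed lines at a ratio of 2. Of the 8 potato I members, 5 had fewer than 10 reads in CK and so passed the filter through CH. Among the 3 serpins and the 8 cystatins, 1 each had fewer than 10 reads in CK.

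Summed over their members, Bowman-Birk, Kunitz and potato I inhibitors took a several-fold larger share of the CH library. Bowman-Birk inhibitors had 29,311 RPM (reads scaled to a library of 1000000) in CH and 4,075 RPM in CK, a ratio of 7.19 with an exact 95% counting interval of 7.14 to 7.25. Kunitz and miraculin proteins had 945 in CH and 151 in CK, a ratio of 6.27 (6.03 to 6.53). Potato inhibitor I had 105 in CH and 19.0 in CK, a ratio of 5.52 (4.93 to 6.20). Potato inhibitor II, a further class of serine protease inhibitors, had only 1.78 RPM in CH and 1.35 RPM in CK, a ratio of 1.32 (0.794 to 2.26). The ratios of cystatins and serpins were far closer to 1. Cystatins had 266 RPM in CH and 225 in CK, a ratio of 1.18 (1.14 to 1.23), and serpins 37.6 in CH and 33.6 in CK, a ratio of 1.12 (1.01 to 1.24). These intervals, like all others given here, cover counting error only and not the difference between plants.

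A large part of the sum came from 1 unigene. The 42 members of named inhibitor classes took 3.07% of the CH reads and 0.450% of the CK reads, a ratio of 6.81 (6.76 to 6.86). Without comp38186_c0, a Bowman-Birk inhibitor, they had 1,538 RPM in CH and 472 in CK, a ratio of 3.26 (3.18 to 3.33). The Bowman-Birk class without it had 182 in CH and 42.4 in CK, a ratio of 4.30 (3.98 to 4.65). Leaving out the most abundant member gave 4.90 for potato inhibitor I, 6.13 for Kunitz and miraculin, 1.26 for cystatins and 1.04 for serpins. In potato inhibitor II it left 1 sparse unigene at 3.47 (1.17 to 13.9).

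**Figure D2:**
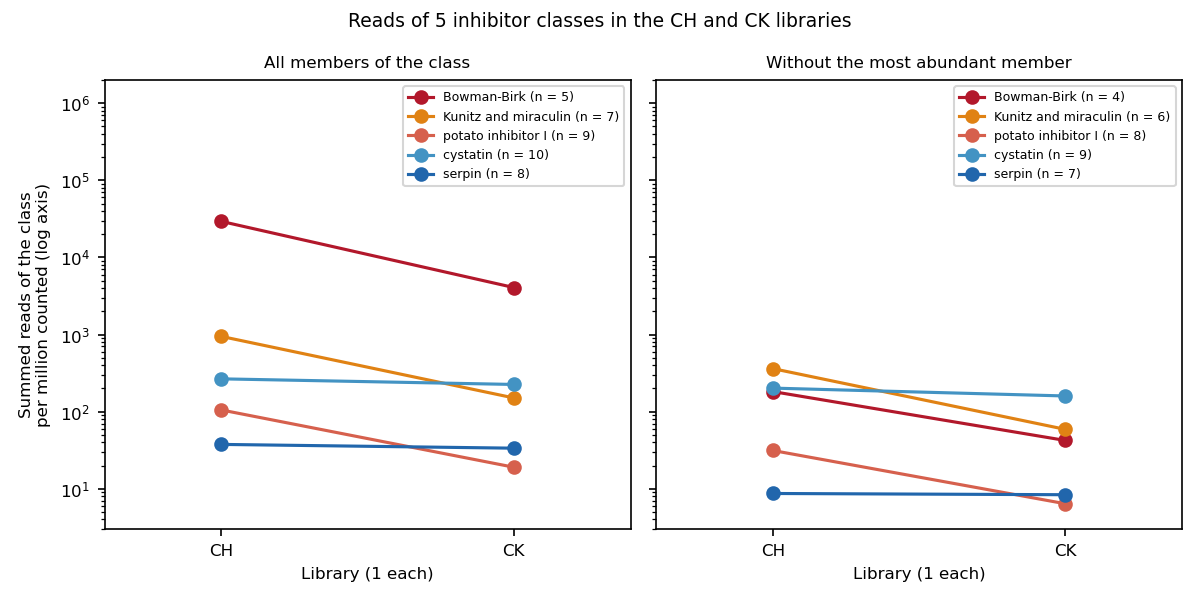
Summed reads per library depth (RPM, log axis) of the 5 classes with at least 3 members in the CH and CK libraries, with all members at the left and without the most abundant member of each class at the right. The lines of Bowman-Birk, Kunitz and potato inhibitor I are higher in CH in both panels, and those of cystatins and serpins are nearly level.

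Bowman-Birk inhibitors are small proteins held rigid by many disulfide bonds, often with separate binding loops for trypsin and chymotrypsin. The most abundant member, comp38186_c0, had 784,709 reads in CH and 71,773 reads in CK. Its level was 54,716 RPKM in CH and 7,503 RPKM in CK, and it differed 7.22-fold (7.17 to 7.28). It was the most abundant of all unigenes in CH by RPKM, where the next had 8,941 RPKM, and ranked 4 in CK, where the highest unigene had 13,901 RPKM. This unigene alone held 2.91% of the CH reads and 0.403% of the CK reads, and 99.4% of the Bowman-Birk reads in CH and 99.0% in CK. Its Nr hit is MpBBI, a partial Bowman-Birk inhibitor of Maclura pomifera, the Osage orange.

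A pair of other Bowman-Birk unigenes was also called higher, at far lower levels. The unigene comp30853_c0, with a hit to a trypsin inhibitor of Medicago truncatula, had 3,953 reads (201 RPKM) in CH and 602 reads (46.9 RPKM) in CK, which is 4.34-fold (3.98 to 4.74) higher. The unigene comp40889_c0, whose hit is again MpBBI, had 879 reads (48.5 RPKM) in CH and 121 reads (10.2 RPKM) in CK, a ratio of 4.80 (3.97 to 5.85). The remaining members of the class were sparse and not called. The unigene comp81707_c0 had 66 reads in CH and 31 in CK, a ratio of 1.41 (0.905 to 2.23). The third unigene with the MpBBI hit, comp364773_c0, had 10 reads in CH and 0 in CK, which is at least 2.20-fold higher against a floor of 3 reads, with an exact 95% lower limit of 1.48. Unigenes that share a hit may be parts or near copies of the same gene, which was not tested.

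**Figure D3:**
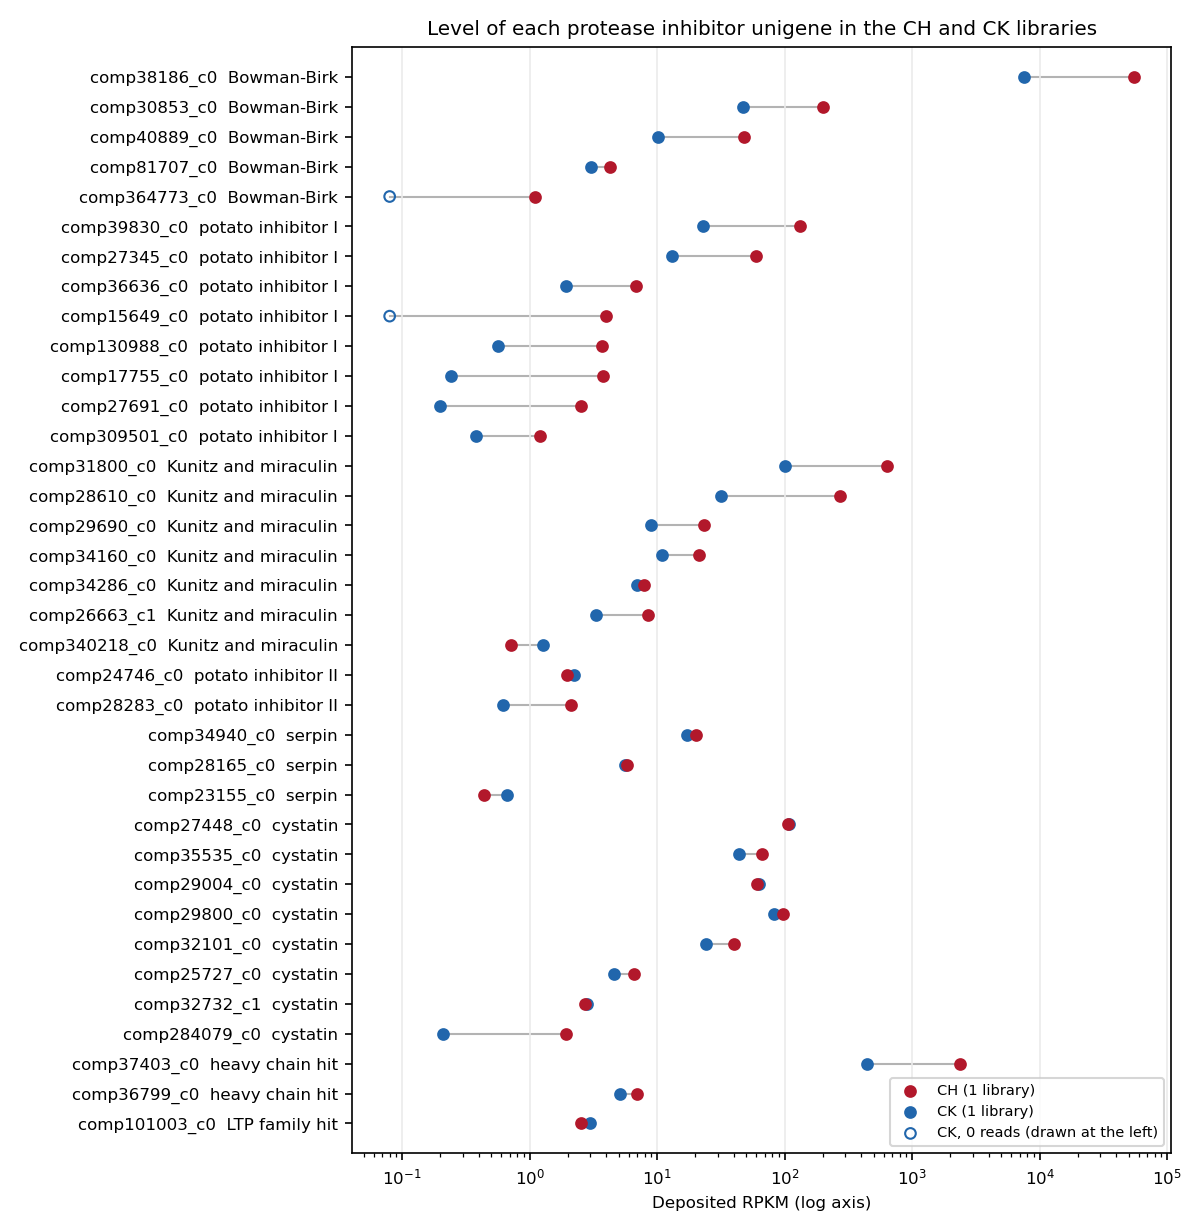
Deposited RPKM (log axis) of the 36 members with at least 10 reads over both libraries, 1 row per unigene, with the CH library in red and the CK library in blue and open circles for 0 reads in CK. Levels in CH run from 0.44 RPKM for the serpin comp23155_c0 to 54,716 RPKM for the Bowman-Birk inhibitor comp38186_c0.

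The potato inhibitor I family, first known from potato and tomato leaves in which wounding induces it, inhibits trypsin, chymotrypsin or subtilisin with a single exposed loop and mostly without disulfide bonds. As classed here, it had the largest share of calls among the classes with several members. For the called comp39830_c0, comp36636_c0, comp130988_c0 and comp27691_c0, neither the Swiss-Prot name nor the Nr name gives the family. Their place in it, and so this share, rests on other words of the annotation text. The most abundant member of the class, comp39830_c0, had 1,988 reads (132 RPKM) in CH and 225 reads (22.9 RPKM) in CK, a ratio of 5.84 (5.08 to 6.73). The unigene comp27345_c0, with a hit to the squash inhibitor of trypsin and Hageman factor, had 630 reads (60.1 RPKM) in CH and 89 reads (13.0 RPKM) in CK, a ratio of 4.68 (3.74 to 5.91). These were the only members of the family above 10 RPKM in either library. The unigene comp36636_c0 had 95 reads (6.85 RPKM) in CH and 18 reads (1.94 RPKM) in CK, a ratio of 3.49 (2.09 to 6.14).

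A further 4 potato I members were called higher on few or no reads in CK. The unigene comp15649_c0, also a hit to the inhibitor of trypsin and Hageman factor, had 33 reads in CH and 0 in CK, which is at least 7.27-fold higher against a floor of 3 reads, with an exact 95% lower limit of 5.59. The unigene comp130988_c0 had 30 reads in CH and 3 in CK, a ratio of 6.61 (2.05 to 33.8). The size of these ratios is poorly fixed, as their intervals show. The unigene comp17755_c0, a hit to an inhibitor of a glutamate-specific bacterial protease, had 24 reads in CH and 1 in CK, a ratio of 15.9 (2.59 to 652). The unigene comp27691_c0 had 20 reads in CH and 1 in CK, a ratio of 13.2 (2.11 to 548), and shares its Nr hit with comp39830_c0. Neither of the remaining members was called, with 10 reads in CH and 2 in CK for comp309501_c0 and 3 reads in CH and 0 in CK for comp1172352_c0. Without the 4 members of at most 3 reads in CK, all from this family, 10 members in all were called higher. With a coefficient of variation of 0.2, comp36636_c0, comp130988_c0, comp17755_c0 and comp27691_c0 were no longer called.

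Kunitz inhibitors are larger, with a folded barrel of strands. The family includes the soybean trypsin inhibitor, the taste-modifying fruit protein miraculin, and cereal proteins that block both the bacterial protease subtilisin and the plant's own alpha-amylase. The most abundant member in ramie leaves, comp31800_c0, is a miraculin hit with 15,717 reads (636 RPKM) in CH and 1,633 reads (100 RPKM) in CK, a ratio of 6.36 (6.04 to 6.70). The unigene comp28610_c0, an alpha-amylase/subtilisin inhibitor hit, had 8,602 reads (272 RPKM) in CH and 662 reads (31.8 RPKM) in CK. Its ratio of 8.59 (7.93 to 9.31) was above that of comp31800_c0, and their intervals, which cover counting error only, do not overlap. Both unigenes share an Nr hit and had expected counts that were not whole. Whether reads were divided between them was not tested. The unigene comp29690_c0, another alpha-amylase/subtilisin inhibitor hit, was also called, with 507 reads (23.3 RPKM) in CH and 129 reads (8.98 RPKM) in CK and a ratio of 2.60 (2.14 to 3.18). It was the lowest ratio among the 14 called members, and it was not called with a coefficient of variation of 0.2.

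The other Kunitz and miraculin unigenes spread around these values without a call. The miraculin hit comp34160_c0 lay just under the threshold, with 414 reads (21.4 RPKM) in CH, 138 reads (10.9 RPKM) in CK and an RPKM ratio of 1.97, and it was called when libraries were scaled with TMM or with medians of ratios. The miraculin hit comp26663_c1 had 40 reads in CH and 10 in CK, a ratio of 2.64 (1.30 to 5.93). The miraculin hit comp34286_c0 had 169 reads in CH and 97 in CK, a ratio of 1.15 (0.892 to 1.49). It shares its Nr hit, a peach protein, with the 3 called members of the class, so 4 unigenes with 1 common hit had ratios from 1.15 to 8.59. The unigene comp340218_c0 had 12 reads in CH and 14 in CK, a ratio of 0.566 (0.239 to 1.32).

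Potato inhibitor II and the mustard family, further groups of serine protease inhibitors, were barely expressed in these leaves. The unigene comp24746_c0 had 27 reads (1.98 RPKM) in CH and 20 reads (2.24 RPKM) in CK, a ratio of 0.892 (0.482 to 1.68). The unigene comp28283_c0 had 21 reads (2.12 RPKM) in CH and 4 reads (0.62 RPKM) in CK, a ratio of 3.47 (1.17 to 13.9), and was not called. The mustard hit comp1201390_c0 had 1 read in each library.

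Part of the cystatins were well expressed, and the ratios of these ran from 0.976 to 1.68, all under 2. The most abundant, comp27448_c0, had 1,734 reads (106 RPKM) in CH and 1,167 reads (109 RPKM) in CK, a ratio of 0.982 (0.911 to 1.06). A similar ratio of 0.976 (0.898 to 1.06) was seen for comp29004_c0, with 1,412 reads (60.7 RPKM) in CH and 956 reads (62.5 RPKM) in CK. For both, the counting interval excludes a ratio of 2 in either direction.

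The remaining abundant cystatins passed the adjusted p but not the ratio of 2. The unigene comp32101_c0 had 1,048 reads (40.1 RPKM) in CH and 412 reads (24.3 RPKM) in CK, a ratio of 1.68 (1.50 to 1.89). The unigene comp35535_c0 had 1,476 reads (66.3 RPKM) in CH and 642 reads (43.9 RPKM) in CK, a ratio of 1.52 (1.38 to 1.67). For comp29800_c0 the values were 1,320 reads (96.6 RPKM) in CH and 742 reads (82.9 RPKM) in CK, a ratio of 1.18 (1.07 to 1.29). Together with the miraculin hit comp34160_c0 these are the 4 members that passed the adjusted p alone. The other 5 cystatins had at most 117 reads in either library. Among them comp284079_c0, with a hit to a fig cystatin, had 14 reads in CH and 1 in CK, a ratio of 9.25 (1.41 to 391) that was not called.

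Serpins were weakly expressed and close between the libraries. The most abundant, comp34940_c0, a hit to Serpin-ZX, had 779 reads (20.2 RPKM) in CH and 449 reads (17.3 RPKM) in CK, a ratio of 1.15 (1.02 to 1.29). The unigene comp28165_c0 had 220 reads (5.82 RPKM) in CH and 139 reads (5.65 RPKM) in CK, a ratio of 1.05 (0.842 to 1.30). The other 6 had at most 6 reads in either library, and no difference of theirs could be detected at this depth. For 1 of them, comp880698_c0 with 2 reads in CH and 0 in CK, the Nr hit is a protein of the fungus Piromyces.

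**Figure D4:**
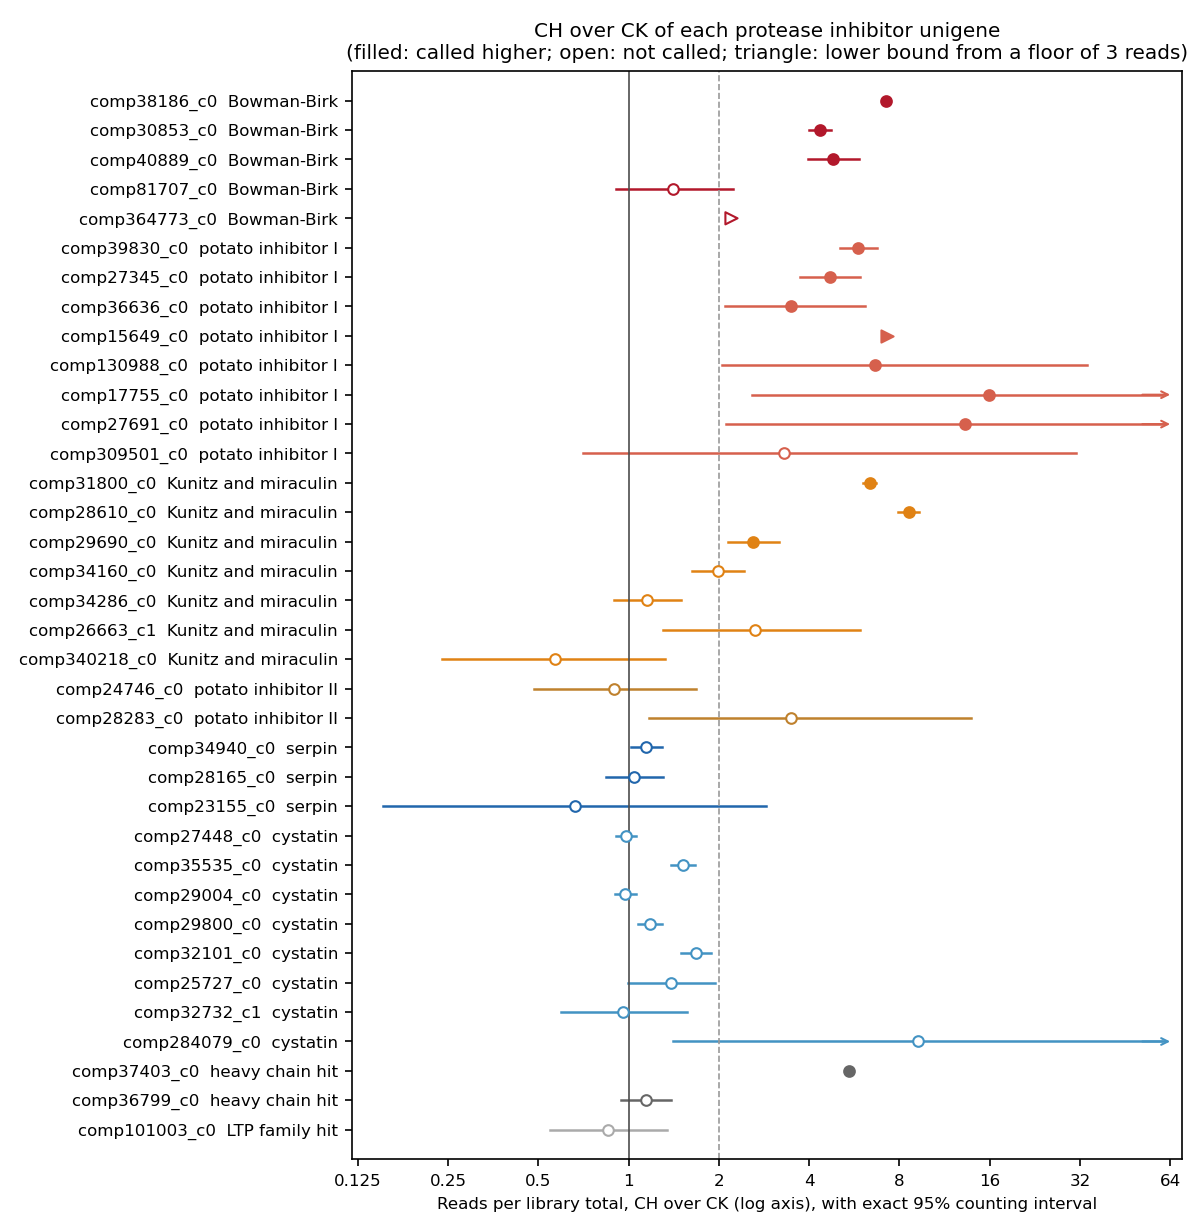
Ratio of reads per library total, CH over CK (log axis), of the same 36 members with its exact 95% counting interval, filled where called higher, open where not called, and a triangle where 0 reads in CK leave only the bound from a floor of 3 reads. The solid and dashed lines mark ratios of 1 and 2, and the intervals of the 5 most abundant cystatins and of 2 of the 3 serpins lie wholly below 2.

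Of the hits outside the named inhibitor classes, 1 was abundant. The unigene comp37403_c0 had 139,007 reads (2,383 RPKM) in CH and 16,907 reads (440 RPKM) in CK, a ratio of 5.43 (5.35 to 5.52). It ranked 19 by RPKM in CH and 176 in CK, and held 0.516% of the CH reads and 0.0950% of the CK reads. Its Nr hit is an inter-alpha-trypsin inhibitor heavy chain of Ricinus communis. In mammals the heavy chains are bound to the inhibitor bikunin and do not inhibit trypsin themselves, so the name does not make this unigene a protease inhibitor. The other heavy chain hit, comp36799_c0, had 290 reads in CH and 168 in CK, a ratio of 1.14 (0.940 to 1.39). The lipid transfer family hit comp101003_c0, named for a fold that seed storage proteins, lipid transfer proteins and some inhibitors share, had 49 reads in CH and 38 in CK, a ratio of 0.852 (0.546 to 1.34).

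Features that the word rule did not use were also compared. GO terms were present for 35 members. The authors assigned them from the Nr hits, whose names the rule read, so they are not independent of it. The term response to wounding was held by 8 members, all of potato inhibitor I, and 6 of these were called higher, whereas 68 higher and 86 lower calls fell on the 973 tested unigenes with the term. The term defense response to insect was held by 5 members, of which 4 were called higher, and by 130 tested unigenes, of which 8 were called higher and 17 lower. All 5 were potato I members. The term serine-type endopeptidase inhibitor activity was held by 15 tested unigenes, 14 of them members, with 8 higher and 0 lower calls in all. The term cysteine-type endopeptidase inhibitor activity was held by 9 tested unigenes, all members and serpins as well as cystatins, with 0 calls in either direction. Among all unigenes 2.48% were called higher and 4.28% lower, and 0 of 9 is near these shares.

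Counting could not always assign reads to 1 unigene. Of the 36 members built from 1 transcript, 11 had an expected count that was not whole within 0.005, as happens where reads are divided between unigenes. Among these were 4 called members, the miraculin hit comp31800_c0, the alpha-amylase/subtilisin hit comp28610_c0, the potato I inhibitor comp27345_c0 and the heavy chain hit comp37403_c0. The unigenes with which they shared reads are not known, so their values are uncertain in this respect. The check was not made for the 9 members with several transcripts. Among these 9 are the called comp38186_c0, comp30853_c0, comp29690_c0 and comp36636_c0, so it is not known whether they share reads. Short unigenes, which may be fragments, were common: 18 members were under 500 bases, and 5 of these were called higher. The 45 members come from 45 different assembly components.

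Further unigenes carry an inhibitor GO term without an inhibitor name. Of these 7, 2 were called higher and 1 lower, beside 2.48% higher and 4.28% lower among all unigenes. Both higher calls were osmotin-like proteins, which belong to a family of antifungal proteins related to thaumatin. The unigene comp34793_c0 had 6,108 reads in CH and 1,205 in CK, a ratio of 3.35 (3.15 to 3.57), and comp16103_c0 had 98 reads in CH and 17 in CK, a ratio of 3.81 (2.26 to 6.80). The lower call was a defensin-like protein, comp20950_c0, with 28 reads in CH and 49 in CK, 2.65-fold lower (1.63 to 4.38).

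Other leaf proteins known to hamper digestion in caterpillars, among them polyphenol oxidases, arginase and acid phosphatases of the vegetative storage type, were set beside the inhibitors. Of 42 such unigenes 8 were called higher and 3 lower, beside the same 2.48% and 4.28% of all unigenes, and their median log2 RPKM ratio was 0.03 over the 32 with at least 10 reads. The words of this list also caught 11 purple acid phosphatases, a different family, of which 2 were called, both of them lower. Among the called unigenes, the polyphenol oxidase comp20474_c0, an enzyme that turns phenols into reactive quinones, had 26,541 reads in CH and 209 in CK, a ratio of 83.9 (73.2 to 96.6). The acid phosphatase comp25126_c0 had 1,645 reads in CH and 55 in CK, a ratio of 19.8 (15.1 to 26.3). Both ratios exceed that of every called inhibitor with more than 3 reads in CK. The lowest among the called unigenes were the purple acid phosphatase comp34771_c0, with 45 reads in CH and 118 in CK and 3.97-fold lower (2.79 to 5.73), and the acid phosphatase comp29132_c0, with 34 reads in CH and 82 in CK and 3.65-fold lower (2.42 to 5.62).

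Jasmonate is made from linolenic acid by a 13-lipoxygenase, allene oxide synthase and later enzymes, and JAZ (TIFY) proteins repress its targets. Words for its synthesis or signaling caught 58 unigenes, of which 57 had reads. Of these, 13 were called higher, 3 lower and 41 were not called, beside 2.48% higher and 4.28% lower among all unigenes. The median log2 RPKM ratio was 0.38 over the 50 with at least 10 reads. The words also caught 2 rectifying potassium channels, neither of which was called, and hits to 9-lipoxygenases. Of the latter, comp29491_c0, comp29491_c1, comp29491_c2 and comp39017_c0 are among the higher calls, so the counts are not of jasmonate genes alone. The highest ratio among the called unigenes was that of the 13-lipoxygenase comp31063_c0, with 286 reads in CH and 6 in CK, a ratio of 31.5 (14.3 to 86.5). It was followed by comp29491_c1, a 9-lipoxygenase, which makes products other than jasmonate, with 19,799 reads in CH and 2,039 in CK and a ratio of 6.42 (6.13 to 6.72). The most abundant 13-lipoxygenase hit, comp38454_c0, was also called higher. It had 219,408 reads in CH and 34,356 in CK, a ratio of 4.22 (4.17 to 4.27). Allene oxide synthase hits called higher were comp30752_c0, comp32063_c1, comp38024_c0 and comp24775_c0, and none was called lower. The lowest among the called unigenes were further 13-lipoxygenases. The unigene comp25237_c0 had 113 reads in CH and 224 in CK, a ratio of 0.333 (0.263 to 0.420), and comp37039_c0 had 982 reads in CH and 1,463 in CK, 2.25-fold lower (2.08 to 2.45).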

How the data were processed

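Leaf RNA of ramie was sequenced in 2 libraries, CH and CK, 1 per group. The authors assembled the reads of both with Trinity (K-mer 25), annotated the unigenes by BLASTx and deposited for each library an expected count per unigene, which is not normalized. The deposited RPKM and TPM were made by the authors from these counts, and TPM was not used for any value. The program for mapping and counting the reads is one not given in the sources used here. The submitters' processing notes name DESeq without a version.

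After rounding of the expected counts, a 2-sided Audic-Claverie test was run for the 43,302 unigenes with at least 1 read against totals of 26,938,918 reads in CH and 17,800,062 in CK, with Benjamini-Hochberg adjustment. It compares these libraries, not the conditions. Calls needed an adjusted p below 0.01 and a 2-fold difference in RPKM. Ratios are of reads per library total, and their exact 95% Clopper-Pearson intervals take in only the counting error. Against 0 reads a bound from a floor of 3 reads is given. Log2 ratios are of the deposited RPKM, with 0 reads set at the floor. Classes follow the words of the whole Swiss-Prot annotation text, with its gene and organism fields, and of the Nr name. Words for 2 classes were added after reading the annotation text. For the called potato I members comp39830_c0, comp36636_c0, comp130988_c0 and comp27691_c0, the Swiss-Prot name is only Proteinase inhibitor. Neither this nor their Nr name gives a family. The test was checked on simulated data that held counting error only, so the check does not cover differences between plants.

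The members, classes and related lists were chosen with earlier results of these data known. Named unigenes are the called members, the most abundant of each class, the inhibitors that the study names and, per related list, at most the 2 highest and 2 lowest called by RPKM ratio. Names of other members, and of further unigenes of the jasmonate list, were chosen once their values had been seen. The calls were repeated with the exact binomial test, with the exact test of edgeR at assumed coefficients of variation of 0.2 and 0.4, with TMM and median of ratios scaling, with a filter of 10 reads, with 1 added to each RPKM, at 4-fold and at an adjusted p of 0.001. Sequences of the unigenes were not used here. Python 3.11.15, numpy 2.4.6, pandas 2.3.3, scipy 1.17.1, matplotlib 3.10.9, R 4.3.3 and edgeR 4.0.16 were used.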

Additional observations from a re-analysis of the deposited data

How the results depend on the processing

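The 14 members called higher were also called with the exact binomial test, the filter of 10 reads over both libraries and the pseudocount of 1, and all 14 were among the 15 called with TMM or the median of ratios, which added comp34160_c0. Both scalings moved log2 ratios up by 0.05 and 0.08. Among all unigenes, TMM called 1,164 higher and 1,697 lower, and the median of ratios 1,233 and 1,638. The binomial test called 1,074 higher and 1,766 lower among all unigenes, the filter 1,129 and 1,912, and the pseudocount 904 and 1,429. A 4-fold threshold left 12, without comp29690_c0 and comp36636_c0, against 585 higher and 654 lower among all unigenes. An adjusted p of 0.001 in the Audic-Claverie test left 12, without comp130988_c0 and comp27691_c0, against 905 higher and 1,583 lower among all unigenes. With edgeR's exact test and an assumed coefficient of variation of 0.2, 9 were called, and with 0.4, 0, by the wider spread that these settings assume. A pair of alternatives was chosen after seeing the data: 13 of the 42 members in named classes were called higher, and 10 of the members with at least 4 reads in CK. Among all unigenes with at least 1 read, 2.48% were called higher, and the share with at least 4 reads in CK was not counted. No member was called lower under any of these alternatives, which among so few members is near the share of all unigenes called lower.

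The Bowman-Birk ratio was 7.46 with TMM, 7.59 with the median of ratios, 7.27 from summed RPKM and 4.30 without its most abundant member. Potato inhibitor I was at 4.90 without its most abundant member. Kunitz and miraculin was at 6.62 with the median of ratios and 5.93 from summed RPKM, and cystatins at 1.25 with the median of ratios and 1.26 without the most abundant member. The cause of the shifts between reads and RPKM was not tested. No paired analysis was possible because each group has 1 library. For the same reason no library could be left out, and differences between plants cannot be separated from the challenge. Of the 14 called members, 4 had at most 3 reads in CK, so the depth leaves the size of their ratios poorly fixed.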
